A study of Mus musculus with 8 samples.

Results

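The difference between the effects of Virma loss and Mettl3 loss on gene expression was measured in mouse embryonic stem cells cultured under primitive endoderm induction. For each gene it is Virma cKO minus Virma WT, less Mettl3 cKO minus Mettl3 WT, so a gene with a negative difference fell further, or rose less, in Virma cKO. Of the 21812 gene symbols in the table, 12671 entered the comparison because their value was at least 30 in both libraries of at least 1 group. There are 4 groups of 2 total RNA libraries, 8 in all: the WT and cKO cultures of a Virma line and those of a Mettl3 line. Every group was grown in the same medium. The labels give the genotypes as WT, Mettl3_cKO and Virma_cKO and do not spell out cKO, read here as a conditional knockout. The sources used here do not give the driver of the deletion or the number of clones. The deposited values carry the mark D2, possibly a day, but no source explains it or states the time in the medium. The labels do not say that libraries of a group came from separate cultures, so the p-values reflect library-to-library spread alone, possibly technical.

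METTL3 is the enzyme that places N6-methyladenosine, m6A, on messenger RNA, and it works as a heterodimer with METTL14. VIRMA is the large scaffold of the associated complex, which also holds WTAP, ZC3H13, CBLL1 and RBM15 and guides methylation toward stop codons and 3' untranslated regions. VIRMA has further been linked to the choice of polyadenylation sites. Primitive endoderm is the extraembryonic endoderm that lines the blastocyst cavity. Its cells switch on GATA6 and GATA4, secrete a laminin and collagen IV basement membrane, and go on to form the absorptive visceral endoderm and the parietal endoderm of the yolk sac.

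The cultures held RNA of both embryonic stem cells and primitive endoderm. In the WT libraries the pluripotency factor Pou5f1 read 8212 and 8394 in Mettl3 WT and 9374 and 9629 in Virma WT, and the primitive endoderm laminin Lama1 read 60606, 61032, 45971 and 45592 in the same order. These deposited values are read counts scaled to a common upper quartile and rounded, and differences are given on the log2(value + 5) scale, which understates the change of low genes. The scaling factors imply about 6200000 and 6700000 reads in the Mettl3 WT libraries and 16000000 to 25610000 in the other libraries, so the Mettl3 effect rests on the shallowest group. The labels name kits but not which library each was used for, so the part of the kit in the results was not tested. Fibroblast and interstitial matrix genes, which would mark feeder or mesenchymal cells, had a summed value of 11234 to 11285 in Virma WT, 24886 to 25067 in Virma cKO, 5083 to 5476 in Mettl3 WT and 8576 to 8674 in Mettl3 cKO. Their part in the results below was not tested. In these bulk samples, fewer cells of a type and less RNA per cell cannot be told apart.

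The targeted genes do not check the labels. Mettl3 read 596 and 588 (Mettl3 WT), 588 and 560 (Mettl3 cKO), 768 and 742 (Virma WT) and 565 and 552 (Virma cKO). Virma read 1613 and 1736 (Mettl3 WT), 1797 and 1730 (Mettl3 cKO), 1564 and 1488 (Virma WT) and 1173 and 1214 (Virma cKO). Neither gene was called in the libraries labelled Mettl3 cKO, with effects of −0.04 for Mettl3 and 0.08 for Virma. Both fell in those labelled Virma cKO, by 0.43 and 0.35. Mettl3 was, however, higher in Virma WT than in Mettl3 WT by 0.35, and between the cKO groups it differed by −0.04. A gene-level value does not show whether a deleted exon is missing.

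The 2 knockouts changed many of the same genes in the same direction and still differed in size or sign at many of them. By limma with Benjamini-Hochberg adjustment at 0.05, the difference of the effects was called for 6708 genes, 52.9% of those tested. It was positive for 3091 genes and negative for 3617, and at least 2-fold for 599 (4.73%), of which 235 were positive (1.85%) and 364 negative (2.87%). The Virma effect was called for 8568 genes (67.6%), a rise for 32.1% and a fall for 35.5% of those tested. The Mettl3 effect was called for 8042 (63.5%), a rise for 30.5% and a fall for 32.9%. Effects of at least 2-fold were more often Virma effects, with 998 called genes against 528 for Mettl3. Across genes the effects had a Spearman rho of 0.50, which describes 12671 genes that share libraries and are not independent replicates. Where both effects were called, 4574 genes moved in the same direction and 1248 moved in opposite directions. All 1248 also had a called difference, which follows almost by itself from 2 called effects of opposite sign and adds no support.

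**Figure D1:**
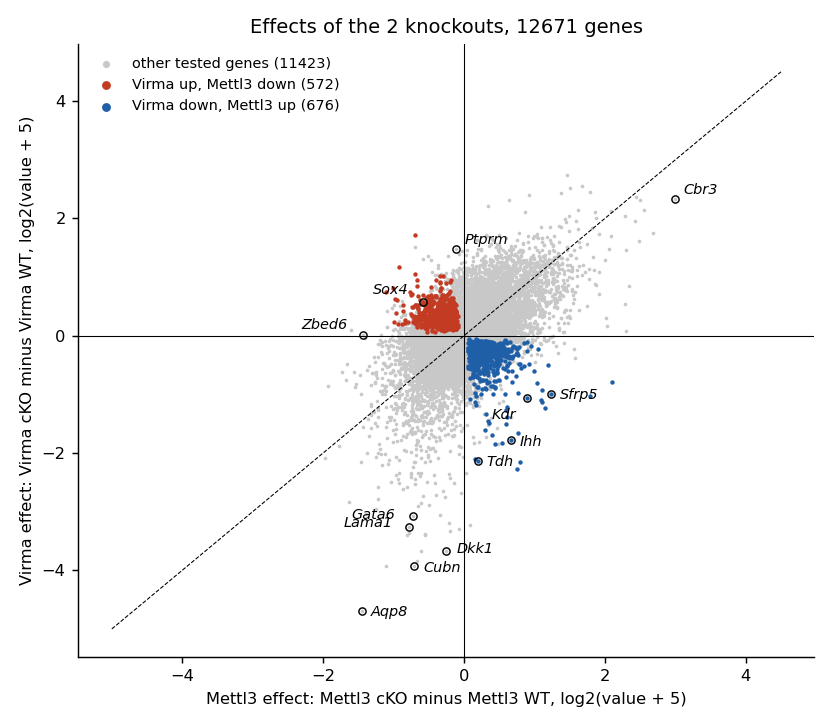
Each point is 1 of 12671 tested genes, with the Mettl3 effect on the horizontal axis and the Virma effect on the vertical axis, both in log2(value + 5). The dashed line marks equal effects; red points are the 572 genes that rose in Virma cKO and fell in Mettl3 cKO, blue points the 676 of the reverse pattern, and Aqp8, Cubn and Dkk1 lie far below the line.

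The called differences fell into a few patterns. The most frequent were genes called down in Virma cKO alone, 1021, and genes that fell in both knockouts and further in Virma cKO, 854. Genes called up in Virma cKO alone numbered 851, and genes called in Mettl3 cKO alone numbered 811 down and 659 up. In 352 genes both effects were falls and the Mettl3 fall was larger, in 369 both were rises and the Mettl3 rise was larger, and in 452 the Virma rise was larger. The 1248 opposite genes are 9.85% of the genes tested: 572 (4.51%) rose in Virma cKO and fell in Mettl3 cKO, and 676 (5.34%) did the reverse.

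Each effect was taken against the WT group of its own line, and the WT groups themselves differed at 7022 genes (55.4%), with 30.5% higher and 24.9% lower in Virma WT. For 1722 of the 6708 called genes (25.7%) the gap between the WT groups was larger than the gap between the cKO groups. The cKO groups, compared directly, differed at 9110 genes (71.9%), with 34.8% higher and 37.1% lower in Virma cKO. They were called in the direction of the difference at 5351 of the genes with a called difference (79.8%) and in the other direction at 344. Where a gene named below is of the last kind, its cKO gap is given. The counts of each list below are to be read against the shares over all genes tested. These were 28.5% with a negative called difference, 24.4% with a positive one and 9.85% opposite.

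Transcription factors of primitive endoderm had the most negative median difference of the 51 lists. All 9 tested members of the list were called in the difference, 8 negative and 1 positive, against 28.5% of all genes called negative and 24.4% called positive. The median difference was −2.35, against −0.02 over all genes tested, with a median Virma effect of −2.66 and a median Mettl3 effect of −0.34. Gata6, the factor that starts the primitive endoderm programme, read 2656 and 2456 (Mettl3 WT), 1595 and 1496 (Mettl3 cKO), 1847 and 1791 (Virma WT) and 204 and 221 (Virma cKO). Both cKO groups lay below their own WT pair without overlap, and the Virma cKO libraries were far lower. The Gata6 difference was −2.35 ± 0.08 (SE), adjusted p = 7.65e-17.

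Gata4, its partner factor, read 4035 and 3921 (Mettl3 WT), 3255 and 3221 (Mettl3 cKO), 3571 and 3628 (Virma WT) and 565 and 569 (Virma cKO). Sox7, a SOX factor of early extraembryonic endoderm, read 1715 and 1755, 1233 and 1139, 1614 and 1658, and 154 and 149 in the same order, which all later values without group names follow. For both genes the WT groups were close and only the Virma cKO libraries fell several-fold, with differences of −2.36 ± 0.05 for Gata4 and −2.84 ± 0.08 for Sox7. Sox17, which acts with Gata6 in endoderm specification, read 706 and 795, 696 and 753, 591 and 655, and 153 and 175. Its groups overlapped in the Mettl3 line, where the effect of −0.05 was not called, and the Virma effect was −1.89.

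Hnf4a, a nuclear receptor of visceral endoderm that stood at 56 to 83 in the WT libraries, likewise had no called Mettl3 effect and read 10 and 9 in Virma cKO. Foxa2 and Foxq1, both forkhead factors, had differences of −1.03 and −2.32. Klf6, a zinc finger factor, was the exception: it read 2681 and 2508 (Mettl3 WT), 1515 and 1459 (Mettl3 cKO), 2304 and 2371 (Virma WT) and 2739 and 2789 (Virma cKO). It fell by 0.80 in Mettl3 cKO and rose by 0.24 in Virma cKO, a difference of 1.04 ± 0.06 (adjusted p = 6.09e-13).

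**Figure D2:**
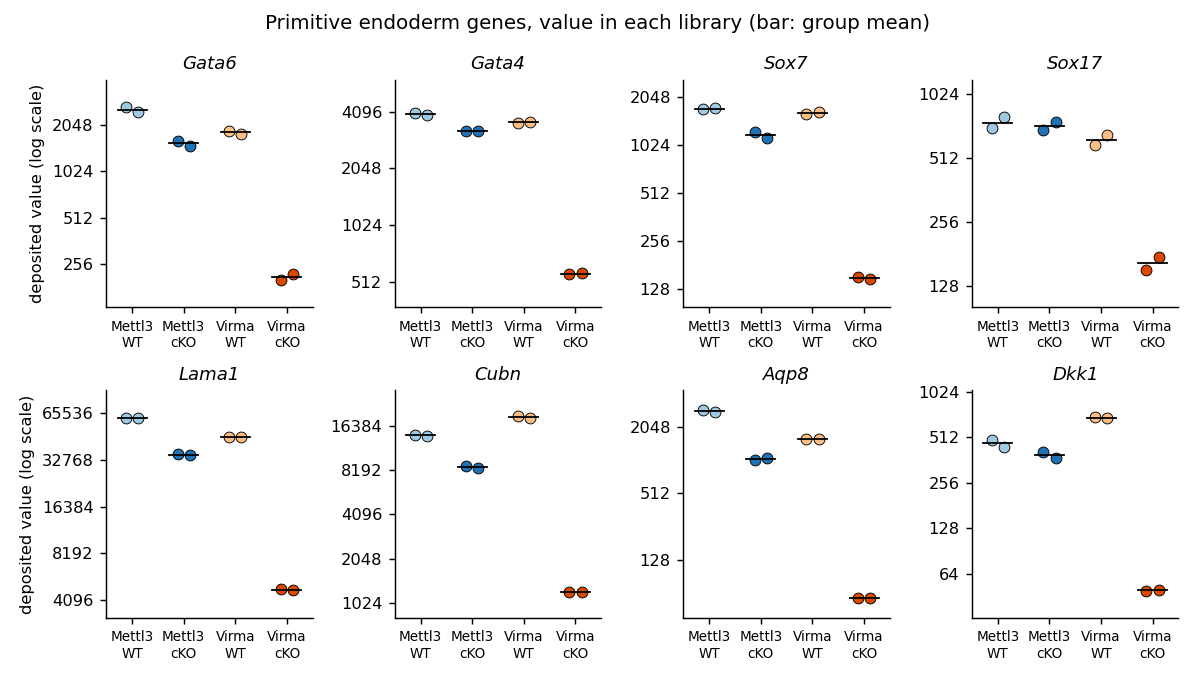
Deposited value in each of the 8 libraries for 8 primitive endoderm genes, on log axes, with a bar at the mean of each group of 2. In every panel the Virma cKO libraries are the lowest and lie well apart from the rest, for example 204 and 221 for Gata6 and 58 and 57 for Aqp8.

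The absorptive surface of extraembryonic endoderm followed the same pattern. All 13 tested members of the endocytic and apical list had a negative called difference, with a median of −2.27, a median Virma effect of −2.33 and a median Mettl3 effect of −0.48. Cubn, the endocytic receptor for vitamin B12 complexes and albumin, read 14212 and 13907 (Mettl3 WT), 8706 and 8458 (Mettl3 cKO), 18952 and 18569 (Virma WT) and 1227 and 1222 (Virma cKO). Amn, which anchors cubilin in the membrane, read 624 and 579, 475 and 566, 614 and 713, and 69 and 67. Cubn fell in both knockouts and its difference was −3.22 ± 0.04, whereas the Amn groups of the Mettl3 line did not pass the test (−0.21, adjusted p = 0.0572) and its difference was −2.98 ± 0.13.

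Aqp8, a water channel, read 2952 and 2837 (Mettl3 WT), 1038 and 1069 (Mettl3 cKO), 1611 and 1600 (Virma WT) and 58 and 57 (Virma cKO). It fell by 1.45 in Mettl3 cKO and fell by 4.69 in Virma cKO. Srgn, a proteoglycan core protein, read 3678 and 3402, 2180 and 2259, 2914 and 2738, and 185 and 201, with a difference of −3.17 ± 0.07. The 4 genes thus shared a deep Virma fall and differed in whether and how far they fell with Mettl3.

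Of 14 basement membrane genes, 9 had a negative and 2 a positive called difference, and the median was −0.62. In each knockout 12 of the 14 fell, and the falls were of different size. Lama1, the laminin alpha chain of this membrane, fell from 60606 and 61032 to 35428 and 35313 in the Mettl3 line and from 45971 and 45592 to 4794 and 4728 in the Virma line. The laminin chain Lamb1 and the collagen IV chains Col4a1 and Col4a2 had differences of −1.47, −1.59 and −1.52. Nid1, which links laminin to collagen IV, went the other way: it read 2475 and 2516 (Mettl3 WT), 1910 and 1839 (Mettl3 cKO), 2560 and 2558 (Virma WT) and 2851 and 2866 (Virma cKO). Its difference was 0.57 ± 0.05, with a Mettl3 fall of 0.41 and a Virma rise of 0.16.

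Visceral endoderm secreted and organizer genes differed more in sign. Of 13 tested members 10 had a negative called difference and none a positive one, with a median of −0.94, and 5 rose in Mettl3 cKO and fell in Virma cKO. A further 5 members did not reach the minimum value, among them Afp and Ttr. Dkk1, a secreted Wnt antagonist, read 492 and 444 (Mettl3 WT), 409 and 372 (Mettl3 cKO), 698 and 686 (Virma WT) and 49 and 50 (Virma cKO), the most negative difference among the genes named (−3.42 ± 0.13, adjusted p = 8.71e-16). Car4, a membrane carbonic anhydrase, read 540 and 574, 535 and 529, 1021 and 946, and 89 and 102, with a difference of −3.24 ± 0.12 and no called Mettl3 effect. Ihh, a hedgehog ligand made by visceral endoderm, read 87 and 88, 148 and 136, 164 and 173, and 50 and 41. Its cKO libraries thus lay above the WT pair in the Mettl3 line and below it in the Virma line. Parietal endoderm markers did not share the negative direction. Of 11 tested, 4 had a positive and 2 a negative called difference, with a median of 0.23. The called share was 54.5%, near the 52.9% of all genes, and 3 rose in Virma cKO and fell in Mettl3 cKO.

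Some signals and further regulators had strongly negative differences. The list of FGF and PDGF pathway genes went both ways, with 8 negative and 4 positive called differences among 13 tested members. Its positive members included the receptors Fgfr1 and Pdgfrb, at 0.27 and 0.58. The growth factor Fgf3 read 158 and 174 (Mettl3 WT), 177 and 177 (Mettl3 cKO), 235 and 223 (Virma WT) and 20 in either library of Virma cKO. The growth factor Fgf10 read 505 and 629, 334 and 316, 541 and 555, and 49 in both. Fgf3 was called in the Virma line alone (difference −3.32) and Fgf10 in both (−2.57). The receptor Fgfr4 had a difference of −1.43, and Tfec and Tcf23, basic helix-loop-helix factors, had differences of −3.13 and −3.06. Lefty1, a Nodal antagonist, read 2169 and 2089 (Mettl3 WT), 2289 and 2442 (Mettl3 cKO), 4680 and 4960 (Virma WT) and 2218 and 2178 (Virma cKO). Its difference of −1.28 stands beside a WT gap of 1.18, and the cKO groups differed by −0.11.

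Some genes of early blood and vessel cells, named because their effects were opposite, differed in this way. Kdr, the VEGF receptor of haemangioblasts, read 112 and 116 (Mettl3 WT), 216 and 218 (Mettl3 cKO), 126 and 114 (Virma WT) and 52 and 58 (Virma cKO). Etv2, an ETS factor that specifies the haematoendothelial lineage, read 252 and 273, 439 and 457, 105 and 120, and 52 and 57. For both genes every Mettl3 cKO library lay above its WT pair and every Virma cKO library below. The Mettl3 and Virma effects were 0.90 and −1.06 for Kdr, and 0.76 and −0.98 for Etv2, with differences of −1.96 ± 0.19 and −1.74 ± 0.17.

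Tal1, a haematopoietic helix-loop-helix factor, read 184 and 149, 292 and 221, 147 and 136, and 55 and 57. Ramp2, a partner of the adrenomedullin receptor, read 303 and 246, 409 and 424, 276 and 298, and 92 and 104. Cdh5, the cadherin of endothelium, read 112 and 130, 157 and 165, 158 and 144, and 45 and 42. All 3 were higher in Mettl3 cKO and lower in Virma cKO, with differences of −1.87, −2.10 and −2.09. In the list of blood and endothelial markers, however, only 5 of 10 members reached the minimum value. A called difference was found for 2 of them, Cdh5 included, a share of 40% against 52.9% of all genes. Only Cdh5 was opposite there: Pecam1 fell in both lines, by 0.15 and 0.46, Tie1 rose in both, by 0.59 and 0.70, and neither effect was called for Tek.

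Sfrp5, a secreted Wnt antagonist of anterior visceral endoderm, read 255 and 262 (Mettl3 WT), 599 and 635 (Mettl3 cKO), 346 and 360 (Virma WT) and 176 and 174 (Virma cKO). Cpn1, a subunit of carboxypeptidase N, read 97 and 80, 199 and 204, 212 and 208, and 84 and 89. Both rose by more than 1 log2 unit in Mettl3 cKO, by 1.24 and 1.15, and fell in Virma cKO, by 0.99 and 1.23. Rbmxl2, Enox1 and Churc1 followed the same pattern with differences of −1.81, −1.42 and −1.27, although Enox1 and Churc1 stood under 100 in most libraries and the Enox1 cKO groups, compared directly, differed by 0.63 in the other direction.

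Many pluripotency genes fell further in Virma cKO, and some rose in Mettl3 cKO. The Virma effect was a called fall for 15 of the 20 and a called rise for 3. The Mettl3 effect was split, a called rise for 8 and a called fall for 7. Of 20 members 11 had a negative and 3 a positive called difference, with a median of −0.45, against 28.5% and 24.4% of all genes. A rise in Mettl3 cKO with a fall in Virma cKO was called for 5, against 5.34% of all genes. Pou5f1, which encodes OCT4, read 8212 and 8394 (Mettl3 WT), 10130 and 10364 (Mettl3 cKO), 9374 and 9629 (Virma WT) and 5137 and 5124 (Virma cKO). Tdh, the threonine dehydrogenase on which mouse embryonic stem cells depend, read 2172 and 2265, 2534 and 2540, 3249 and 3156, and 737 and 711. Pou5f1 rose by 0.30 and fell by 0.89, and Tdh rose by 0.19 and fell by 2.14. Dppa5a, an RNA-binding protein of pluripotent cells, fell in both, by 0.61 and 1.94. Of 15 formative and primed epiblast genes 11 had a negative difference and 2 a positive one, with a median of −1.02, but the cKO groups compared directly gave 6 and 6 with a median of 0.02. In this list Lef1, a Wnt effector, read 23 and 8 (Mettl3 WT), 32 and 44 (Mettl3 cKO), 150 and 158 (Virma WT) and 144 and 145 (Virma cKO), and Fgf5 read 8 in both, 17 and 10, 68 and 66, and 38 in both. Their differences of −1.25 and −1.23 stand beside WT gaps of 3.06 and 2.47, and the cKO groups differed by 1.81 and 1.24 in the other direction.

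Cdx2 of trophectoderm was a further case of this kind. It read 56 and 47 (Mettl3 WT), 135 and 155 (Mettl3 cKO), 260 and 252 (Virma WT) and 272 and 263 (Virma cKO), a difference of −1.35 beside a cKO gap of 0.86. Eomes, a T-box factor of trophoblast and streak, read 443 and 535, 796 and 734, 816 and 790, and 644 and 611, and went opposite ways by 0.65 and −0.35. Of 15 trophectoderm genes tested, 8 had a positive and 3 a negative called difference, with a median of 0.34.

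**Figure D3:**
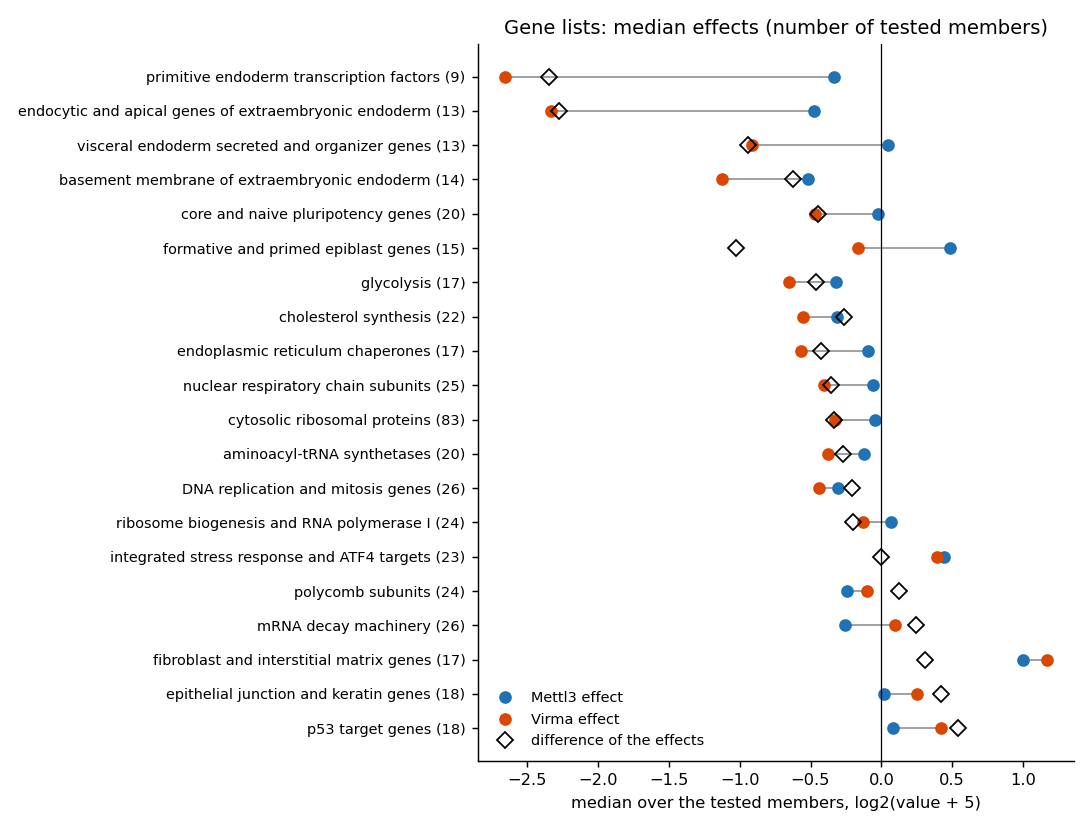
For 20 gene lists, the median Mettl3 effect (blue), the median Virma effect (orange) and the median difference of the effects (open diamonds) over the tested members, whose number stands in brackets, in log2(value + 5). The primitive endoderm lists shown lie further to the left for Virma than for Mettl3, while p53 targets and epithelial junction genes have positive differences. Parietal endoderm markers, not shown, had a median difference of 0.23.

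Genes of protein synthesis had mostly negative differences. Of 83 cytosolic ribosomal protein genes tested, 67 had a negative called difference and 3 a positive one, with a median of −0.34. The Virma effect was a called fall for 72 of them, while the Mettl3 effect was a called rise for 33 and a called fall for 39. In 27 the effects were opposite, all with a rise in Mettl3 cKO. Rpl29 read 14098 and 14712 (Mettl3 WT), 20415 and 21017 (Mettl3 cKO), 16422 and 17543 (Virma WT) and 12839 and 12638 (Virma cKO), a difference of −0.94 ± 0.04. Rpl35 had Mettl3 and Virma effects of 0.50 and −0.37, and Rpl6 effects of 0.12 and −0.64.

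Nolc1, a nucleolar chaperone of ribosome assembly, read 8345 and 8270, 11136 and 10891, 11192 and 11377, and 8048 and 8029, rising by 0.41 in Mettl3 cKO and falling by 0.49 in Virma cKO. Of 24 ribosome biogenesis genes 16 had a negative called difference and none a positive one; with the cKO groups compared directly, 12 were negative and 8 positive. Of 20 aminoacyl-tRNA synthetases, which charge transfer RNAs, 15 were negative and 4 positive, with Kars at −0.50; 13 fell in Mettl3 cKO and 16 in Virma cKO. Of 17 chaperones of the endoplasmic reticulum 13 were negative and 4 positive, and 9 fell in Mettl3 cKO and 13 in Virma cKO. Calr, the calcium-binding chaperone calreticulin, read 44872 and 45186 (Mettl3 WT), 44665 and 45524 (Mettl3 cKO), 38044 and 38343 (Virma WT) and 22305 and 22078 (Virma cKO). Its level overlapped between the Mettl3 groups and fell by 0.78 in Virma cKO, and Xbp1, the unfolded protein response factor, fell by 0.79 there with no called Mettl3 effect.

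Many genes of energy and lipid metabolism fell further in Virma cKO. Of 25 nuclear respiratory chain subunits 23 had a negative called difference and 1 a positive one, with a median of −0.36; the Virma effect was a called fall for 23 and the Mettl3 effect for 10. Uqcrc1, a core subunit of complex III, read 4774 and 4851 (Mettl3 WT), 5150 and 5318 (Mettl3 cKO), 4580 and 4716 (Virma WT) and 2835 and 2889 (Virma cKO). Atp5a1, the alpha subunit of ATP synthase, fell by 0.23 with Mettl3 and by 0.80 with Virma. The 13 mitochondrially encoded genes did not follow the nuclear subunits. Their called differences were 4 negative and 3 positive. The Mettl3 effect was a called rise for 8 and a fall for 2, and the Virma effect a rise for 7 and a fall for 1. Of 17 glycolytic genes 11 were negative and 4 positive: lactate dehydrogenase Ldha read 11579 and 11608, 8402 and 8152, 12464 and 12515, and 4674 and 4567, a fall of 0.49 and of 1.43. The liver phosphofructokinase Pfkl had a difference of −0.89. Pgam1, phosphoglycerate mutase, rose by 0.23 in Mettl3 cKO and fell by 0.63 in Virma cKO.

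Cholesterol synthesis had 16 negative and 1 positive called differences among 22 genes, with falls in Mettl3 cKO for 17 and in Virma cKO for 20, and Ebp, a sterol isomerase, was opposite at 0.25 and −0.49. Fatty acid synthesis had 7 negative and no positive differences among 11 genes, with the synthase Fasn at −0.56. DNA replication and mitosis genes, 15 negative and 5 positive of 26, also fell in both knockouts, 21 in Mettl3 cKO and 23 in Virma cKO. Mcm5, a helicase subunit, read 7629 and 7425, 7405 and 7524, 7211 and 7162, and 4722 and 4705, with a Virma fall of 0.61 and overlapping Mettl3 groups. Mycn, a driver of growth genes in stem cells, fell by 0.28 in Mettl3 cKO and fell by 1.46 in Virma cKO. Immediate early and AP-1 genes did not share one direction. Of 16, 4 had a negative and 3 a positive called difference and 9 had none, with a median of 0.14. The called share was 43.75%, against 52.9% of all genes. Egr1 and Ier2 were among the 4 negative ones, at −0.62 and −0.87.

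A second set of genes rose in Virma cKO and fell in Mettl3 cKO. Sox4, a SOX factor of progenitor cells, read 1866 and 1901 (Mettl3 WT), 1266 and 1258 (Mettl3 cKO), 1686 and 1715 (Virma WT) and 2538 and 2562 (Virma cKO). Nrip1, a corepressor of nuclear receptors, read 1336 and 1360, 943 and 912, 1431 and 1419, and 2060 and 2136. In both genes the WT groups were close and the cKO groups stood on either side of them, with differences of 1.16 ± 0.06 and 1.09 ± 0.06.

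Mybl1, a MYB factor of germ cells, read 199 and 246, 124 and 135, 218 and 176, and 322 and 320, a difference of 1.45. Pdk4, a kinase that restrains pyruvate dehydrogenase, read 110 and 108, 57 and 49, 62 and 74, and 110 and 105, a difference of 1.61. Cyp26b1, which degrades retinoic acid, read 354 and 323, 241 and 189, 147 and 176, and 269 and 252, a difference of 1.33. All 3 were lower in both Mettl3 cKO libraries and higher in both Virma cKO libraries than in their own WT pair. The WT groups differed by −0.65 for Pdk4 and −1.05 for Cyp26b1. Cyp26b1 does not stand for its list: of 16 retinoic acid pathway genes, 5 had a positive and 7 a negative called difference.

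Chtf8, Klhdc7a and Trim12c had the most positive differences by the naming rule, 1.85, 1.82 and 1.73, and lay between 35 and 150 in all libraries. Chtf8 read 150 and 102, 54 and 56, 53 and 42, and 88 and 78. Its WT groups differed by −1.30 and its cKO groups by 0.55, and for Klhdc7a these gaps were −1.41 and 0.41. For Trim12c they were −0.68 and 1.05, so the larger gap lay between the WT groups in the first 2 genes only. Syne1, a giant nesprin of the nuclear envelope, and Lcorl, a transcription cofactor, had differences of 1.14 and 1.18. Igf2r, the imprinted clearance receptor for IGF2, read 3658 and 3628, 2783 and 2668, 2349 and 2322, and 3733 and 3784, going opposite ways by −0.42 and 0.69. Its ligand Igf2 read 624 and 640, 177 and 149, 552 and 473, and 308 and 256, and so fell in both knockouts and further in Mettl3 cKO. Dlk1, another imprinted gene, had the reverse order, with a rise of 0.75 in Mettl3 cKO and a fall of 0.23 in Virma cKO.

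**Figure D4:**
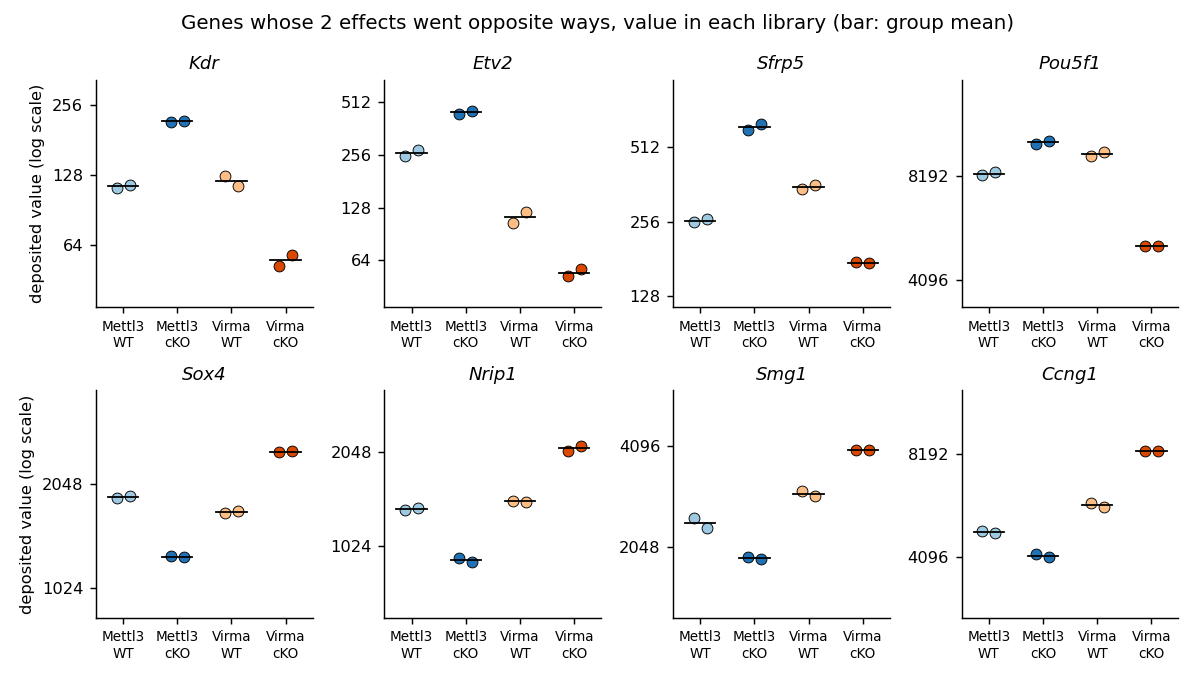
Deposited value in each of the 8 libraries for 8 genes with opposite effects, on log axes, with a bar at the mean of each group of 2. Kdr, Etv2, Sfrp5 and Pou5f1 were higher in Mettl3 cKO and lower in Virma cKO than in their own WT pair, and Sox4, Nrip1, Smg1 and Ccng1 showed the reverse.

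Targets of p53, the stress-activated tumour suppressor, rose with Virma loss. Of 18 members 12 had a positive called difference and none a negative one, with a median of 0.54; the Virma effect was a called rise for 16 and the Mettl3 effect for 7, with 6 called Mettl3 falls. Mdm2, the ubiquitin ligase that limits p53, read 4341 and 4360 (Mettl3 WT), 4446 and 4391 (Mettl3 cKO), 4686 and 4728 (Virma WT) and 8334 and 8446 (Virma cKO). Ccng1, cyclin G1, read 4853 and 4796, 4175 and 4078, 5873 and 5738, and 8316 and 8347. Mdm2 thus rose by 0.83 in Virma cKO alone, and Ccng1 fell by 0.23 in Mettl3 cKO and rose by 0.52 in Virma cKO. Trp53inp1 and the receptor Eda2r had differences of 0.69 and 0.98, but Eda2r was higher in Mettl3 WT than in Virma WT, and its cKO groups differed by −0.27.

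Stress genes of the ATF4 pathway had called differences in both directions. Of 23 members, 9 had a positive and 9 a negative called difference, and the median effects were 0.44 in Mettl3 cKO and 0.39 in Virma cKO. Slc7a11, the cystine transporter, rose further in Virma cKO, reading 3 and 8 (Mettl3 WT), 12 and 17 (Mettl3 cKO), 9 and 8 (Virma WT) and 71 and 62 (Virma cKO). Only its Virma cKO pair reached the minimum value. Its Mettl3 WT values were scaled up by factors of 2.55 and 2.76 and stand for very few reads, so its Mettl3 effect is uncertain. With the length and GC trend removed, its difference of 0.92 was not called (limma, adjusted p = 0.096). Slc7a3, a cationic amino acid transporter, rose in Mettl3 cKO alone, by 1.21 from a lower WT level (105 and 99 against 268 and 287), and stayed lower there than in Virma cKO, where it read 305 and 314. Ddit4, an inhibitor of TORC1 signalling, was opposite at −0.14 and 0.54. The NRF2 target Cbr3, a carbonyl reductase, rose in both. Its values went from 176 and 124 to 1225 and 1197 in the Mettl3 line. In the Virma line they went from 397 and 379 to 1998 and 1944. The Cbr3 difference of −0.66 turned to 0.70 between the cKO groups. Of the 15 NRF2 targets tested, 7 had a positive and 6 a negative called difference. Their median was 0.30, and −0.12 between the cKO groups.

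Genes of messenger RNA decay had 16 positive and 4 negative called differences among 26, with a median of 0.24, and 7 were opposite, all falling in Mettl3 cKO. Smg1, the kinase of nonsense-mediated decay, read 2513 and 2334 (Mettl3 WT), 1924 and 1898 (Mettl3 cKO), 3009 and 2904 (Virma WT) and 3986 and 4001 (Virma cKO), a difference of 0.77 ± 0.05. Xrn1, the cytoplasmic 5' exonuclease, and Cnot6l, a deadenylase, had differences of 0.64 and 0.62. Chromatin genes included the demethylating enzyme Tet3, opposite at −0.41 and 0.38, and Tet1, which rose by 0.79 in Virma cKO alone. The methyltransferase genes Dnmt3b and Dnmt3l fell in both, with differences of −1.02 and −1.15. Of 24 polycomb subunits 9 were positive and 3 negative, 12 called in all, a share near the 52.9% over all genes. Aebp2, Bmi1 and Mtf2 were opposite, each falling in Mettl3 cKO, which is 12.5% of the list against 9.85% of all genes.

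The m6A writers differed among themselves. Of 8 writer genes 3 had a positive and 3 a negative called difference, against 52.9% of all genes called. Mettl14, the partner that stabilises METTL3, read 874 and 897 (Mettl3 WT), 508 and 514 (Mettl3 cKO), 846 and 843 (Virma WT) and 810 and 799 (Virma cKO), so it fell by 0.79 in Mettl3 cKO while the Virma effect of −0.07 was not called. Wtap read 1828 and 1782, 2723 and 2705, 1909 and 1865, and 2842 and 2867. It rose in both, by 0.59 and 0.60, and its difference of 0.01 ± 0.05 was not called (adjusted p = 0.90), but with the trend with transcript length and GC content removed it was −0.22 and called (adjusted p = 0.000753). Rbm15, an RNA-binding adaptor, rose in both, by 0.68 and 0.94, and its difference of 0.26 was not called with that trend removed (−0.0743, adjusted p = 0.48). Its paralogue Rbm15b fell by 0.55 in Virma cKO alone, Cbll1 rose by 0.49 there alone, and Zc3h13 was called in neither. Of 14 readers and demethylases 7 were positive and 2 negative, with the cytoplasmic reader Ythdf3 opposite at −0.42 and 0.36.

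Zbed6, a domesticated transposase that represses Igf2, showed the largest fall called in Mettl3 cKO alone among the genes named. It read 963 and 1049 (Mettl3 WT), 356 and 383 (Mettl3 cKO), 1104 and 1034 (Virma WT) and 1133 and 1037 (Virma cKO), a difference of 1.45 ± 0.09. Peg10, a retrotransposon-derived imprinted gene, fell in both and further in Mettl3 cKO, by 1.38 against 0.58. Ptprm, a receptor phosphatase, and Cd109, a surface glycoprotein, rose in Virma cKO alone, by 1.47 and 1.16.

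Epithelial junction and keratin genes had 13 positive and 1 negative called differences among 18, with a median of 0.42. Cldn4, a tight junction protein, rose by 0.77 in Virma cKO alone. Tjp1, which encodes ZO-1, read 5138 and 5025 (Mettl3 WT), 3291 and 3128 (Mettl3 cKO), 5789 and 5575 (Virma WT) and 5684 and 5644 (Virma cKO). It fell by 0.66 in Mettl3 cKO and its Virma groups overlapped. The splicing regulator Esrp1 likewise fell in Mettl3 cKO alone, by 0.70, and Krt18 was opposite at −0.11 and 0.52. Itgav, the alpha V integrin subunit, rose by 0.76 in Virma cKO and fell by 0.33 in Mettl3 cKO, and the Hippo kinase Lats1 and the MAX-network gene Mga had differences of 0.94 and 0.86.

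Fibroblast and interstitial matrix genes, the list whose summed values are given above, rose in both knockouts, 15 of 17 in Mettl3 cKO and all 17 in Virma cKO. Of these, 10 had a positive called difference and none a negative one, with a median of 0.31 beside a median gap between the WT groups of 1.40. Postn, a matricellular protein, read 79 and 83, 128 and 129, 246 and 239, and 558 and 557, and Fbn1, fibrillin, had a difference of 0.65.

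The genes that went opposite ways also differed in length, a property the comparison did not use. The median length of the longest annotated transcript was 5956 bases for the 572 genes up in Virma cKO and down in Mettl3 cKO, 2285 bases for the 676 genes of the reverse pattern, and 3439 bases for all 12603 tested genes with a length. Across these genes, as a description, transcript length had a Spearman rho of −0.27 with the Mettl3 effect, 0.12 with the Virma effect and 0.38 with the difference, and GC content had a rho of 0.37, −0.02 and −0.36. In 10 bins of nearly equal gene number, the bin of shortest genes had a median difference of −0.30 and the bin of longest genes 0.35. These bins held 167 and 229 opposite genes, and bin 6 held 78. Library depth varies with the groups, and its part in this relation was not tested.

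**Figure D5:**
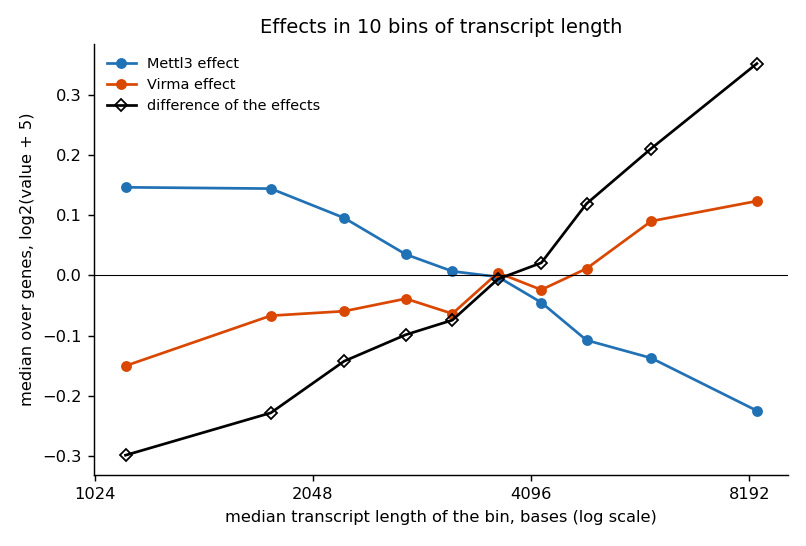
Median effects over genes in 10 bins of transcript length, with the median length of each bin on a log axis and the median in log2(value + 5) on the vertical axis. The Mettl3 effect runs from 0.15 in the bin of shortest genes to −0.22 in the longest, the Virma effect from −0.15 to 0.12, and the difference from −0.30 to 0.35.

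Fewer genes went opposite ways once this relation was removed, while the counts of called differences stayed the same in 2 of the endoderm lists. After a trend with length and GC content was removed from each library, 491 of the 1248 opposite genes still went opposite ways with all tests called. The difference kept its counts in primitive endoderm factors, 1 positive and 8 negative of 9, and in endocytic genes, 13 negative of 13. They became 1 positive and 7 negative of 13 for visceral endoderm secreted and organizer genes, whose opposite members fell from 5 to 2, and 1 positive and 10 negative of 14 for the basement membrane. Targets of p53 had 14 positive of 18. Opposite members fell from 27 to 7 of the ribosomal protein genes and from 7 to 1 of the decay genes. They fell from 5 to 2 of the pluripotency genes and from 3 to 0 of the polycomb genes. The ribosomal protein genes then had 13 positive and 46 negative differences with a median of −0.14, and the respiratory chain subunits had 2 and 18 with a median of −0.24. The median was −0.26 for glycolysis and 0.20 for the fibroblast list. Among single genes, Kdr, Etv2, Tal1, Ramp2, Cdh5, Sfrp5, Cpn1, Sox4, Nrip1, Mybl1, Cyp26b1, Pdk4, Klf6, Rpl29 and Nolc1 still went opposite ways. Ihh, Pou5f1, Tdh, Lefty1, Rpl6, Uqcrc1, Pgam1, Ebp, Ccng1, Trp53inp1, Smg1, Xrn1, Cnot6l, Tet3, Aebp2, Bmi1, Mtf2, Ythdf3, Itgav, Lats1, Mga, Syne1, Lcorl and Rbmxl2 did not, although the difference itself was still called for these genes except Xrn1, Cnot6l and Mtf2. The decay list as a whole then had 5 positive and 7 negative differences, with a median of 0.02, the readers had 1 positive and 6 negative, the writers 1 and 4, and the polycomb subunits 5 and 4. Scaled by total count instead, the polycomb subunits had 14 positive and no negative differences, the respiratory chain subunits 1 and 15, and cholesterol synthesis 4 and 11.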

How the data were processed

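Total RNA was sequenced in 8 libraries, grouped by the titles in the labels. The values deposited by the authors are named raw counts, but they are a signal: counts scaled library by library to a common upper quartile of about 602 and rounded, as the steps between values show, with factors from 0.676 to 2.76. Per the submitters' processing notes the tools included FastQC 0.12.1, STAR 2.7.11b and Subread, with the build mm39. The sources used here do not give the annotation, the strand setting or how reads with more than 1 position were handled, so ribosomal protein genes and other near-identical copies, overlapping genes and antisense pairs are uncertain. The upper quartile was computed over 21812 symbols, of which 3527 are at 0 in every library.

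A count test had been planned and was not used, because the values are not counts. In its place limma 3.58.1 in R 4.3.3 was fitted to log2(value + 5) of all 8 libraries in 4 groups, with a trended and robust variance, after a minimum of 30 in both libraries of a group, and p-values were adjusted by Benjamini-Hochberg over 12671 genes. The test, pseudocount and minimum were chosen after the values were seen, in a trial that also covered pseudocounts of 1 and 20, median-of-ratios scaling and precision weights. A gene is called opposite where both effects and their difference pass 0.05 and the effects differ in sign. The libraries of a pair differed by more than the sampling noise of the estimated reads, with a chi-square per degree of freedom of 1.08 in Mettl3 WT, 1.63 in Mettl3 cKO, 1.91 in Virma WT and 1.33 in Virma cKO, so all entered separately.

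The 51 gene lists and the comparison were chosen with earlier results of these data known. Genes to be named were Mettl3 and Virma, the 8 most positive and 8 most negative differences and the 10 genes of each opposite pattern at an average log2 CPM of at least 2, all tested primitive endoderm factors and m6A writers, and up to 4 members of each other list. This rule named 220 genes, from which the 121 carried through the alternatives were taken after their values were seen. List members named only as untested are extra. Fgfr1, Pdgfrb, Pecam1, Tie1 and Tek are extra too: they were tested, but were not carried through the alternatives. Transcript length and GC content came from GENCODE M21, a build other than theirs, for 21144 symbols matched by name and 427 by an older name, with 241 unmatched. No coordinates are printed. On simulated data of 12671 genes the difference was recovered for 16, 64, 98 and 100% of genes changed 1.3, 1.5, 2 and 4-fold, with 1.42% of calls false. The simulation changed 200 genes in Virma cKO alone at a dispersion of 0.003. It held no gap between the WT groups and no trend with length, so its share of false calls does not carry over to these data. Alternatives were other scalings, minimums, pseudocounts, thresholds and weights, merged Virma pairs, removal of the length and GC trend, 1 control shared by both knockouts, the replicate number as a block, and leaving out each library. The RefSeq promoters of endoderm genes were also searched for a single GATA-type motif, and that search was dropped and is not reported here.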

Additional observations from a re-analysis of the deposited data

Results flagged for a closer look

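The results here were singled out because the effects of the 2 knockouts differed by a test of the difference itself (limma, Benjamini-Hochberg adjusted). That test called 6708 genes, and 1248 genes were called in opposite directions. Groups of 2 libraries allow no test of a single library against its group.

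Among genes higher in Mettl3 cKO and lower in Virma cKO, the difference was −2.45 for Ihh, −1.96 for Kdr, −1.74 for Etv2, −1.87 for Tal1, −2.10 for Ramp2, −2.23 for Sfrp5 and −2.38 for Cpn1. It was −1.42 for Enox1, −1.81 for Rbmxl2 and −1.27 for Churc1. Among genes lower in Mettl3 cKO and higher in Virma cKO, it was 1.16 for Sox4, 1.09 for Nrip1, 1.45 for Mybl1, 1.33 for Cyp26b1 and 1.61 for Pdk4. It was 1.85 for Chtf8, 1.82 for Klhdc7a, 1.73 for Trim12c, 1.14 for Syne1 and 1.18 for Lcorl.

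With the length and GC trend removed, Ihh, Rbmxl2, Syne1 and Lcorl no longer had 2 called effects of opposite sign. Scaled by total count, Churc1 did not. The cause of these changes was not tested.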

How the results depend on the processing

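The number of called differences stayed within 1.5 times of 6708 under all alternatives except the 2-fold minimum, which left 599. The genes called were not all the same. Of the 6708, 4439 kept their call and direction with the length and GC trend removed, and 5797 did with total count scaling. The number of opposite genes was 729 with both Virma pairs as 1 sample each, 785 with the length and GC trend removed, 164 with the 2-fold minimum and 1919 with 1 control shared by both knockouts. Leaving out 1 library gave 5633 to 7322 called differences and 970 to 1456 opposite genes. Scaled by total count, 4124 differences were positive and 2706 negative, 60.4% positive against 46.1%, and the median of all genes was 0.09 in place of −0.02; 896 of the 1248 opposite genes kept their pattern. With the length and GC trend removed 37.1% were positive. Same-numbered libraries deviated together with correlations of −0.0147 to 0.0604, so the numbers do not pair them; with the replicate block 6850 differences were called and 1300 genes were opposite.

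Of 2895 values of 121 genes under 24 alternatives, 2804 kept their direction and side of the threshold and 13 changed sign. With the length and GC trend removed Wtap was −0.22 and called (adjusted p = 0.000753), while Zc3h13 at −0.0611 and Rbm15 at −0.0743 (adjusted p = 0.54 and 0.48) were not; Xrn1, Cnot6l, Mtf2, Cenpe, Cbll1 (0.28), Cbr3 (−0.35), Slc7a11 (0.92) and Postn (0.07) also lost their call. Leaving out 1 library moved Wtap between −0.00959, without the first Mettl3 WT library, and 0.0271, and it was −0.00804 without the second Virma WT library. With 1 shared control, the difference equals Virma cKO against Mettl3 cKO. Srsf11 was then −0.0405, Eda2r −0.27, Cbr3 0.70, Slc7a3 0.35, Lef1 1.81, Fgf5 1.24, Cdx2 0.86 and Enox1 0.63. In that setting Mettl3 lost its call (−0.0388, limma adjusted p = 0.59), and Zc3h13 was called (0.24, limma adjusted p = 0.000426). Without the first Mettl3 cKO library Rbm15 (0.22, adjusted p = 0.0563) and Fgf5 (−0.95, adjusted p = 0.0523) lost their call, and without the first Virma cKO library Rbm15 (0.22, adjusted p = 0.0804) and Slc7a11 (1.39, adjusted p = 0.0536). Without the second Mettl3 WT library Zc3h13 was called (0.23, adjusted p = 0.000705), as it was with total count scaling. With both Virma pairs as 1 sample each, Rbm15, Slc7a11, Lef1, Fgf5 and Postn were not called. The cause was not tested.

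The count tests that had been planned were not run, since the values are not counts, and median-of-ratios scaling in limma was added after the data were seen, as were the pseudocounts of 1 and 20, the precision weights, the Virma cKO pair as 1 sample and a minimum of 100. The Mettl3 WT libraries, the shallowest, limit the low genes, and 1.3-fold differences were mostly missed on simulated data.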
